A study of Homo sapiens with 8 samples.

Results

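The genes described here encode the chemokines, the interleukins and their receptors. They were chosen by symbol, as the protein-coding genes on chromosomes 1 to 22 whose name begins with CCL, CXCL, CCR, CXCR or IL followed directly by a digit, and 136 of the 19229 annotated protein-coding autosomal genes met the rule. Of these, 83 were ligands (43 chemokine ligands and 40 interleukins) and 47 were receptors (15 for chemokines and 32 for interleukins). The remaining 6 were the receptor antagonists IL1RN and IL36RN, the soluble binding proteins IL18BP and IL22RA2, the secreted enzyme IL4I1 and the receptor-like gene IL17REL. Another 8 genes with such symbols lie on the X or Y chromosome and were left out. The rule itself used no measured value, but it was set with earlier results of these data known.

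The study expressed 2 leukemia fusion proteins in U937, a human monoblastic cell line that the labels call monocytic. In AML1-ETO the corepressor ETO is fused to the part of RUNX1 that binds DNA, the Runt domain. In ETO2-GLIS2 the related corepressor ETO2 is fused to the zinc fingers of GLIS2, which bind DNA as well. The AML1-ETO cells were stable line #4 and the ETO2-GLIS2 cells stable line #14, so the ChIP-seq of each protein rests on 1 clone. In both lines the protein carried an HA tag at its N-terminus, and all cells received doxycycline at 5 µg/ml for 12 or 48 h. For the 12 h libraries the titles give 12 h while the general treatment text names 48 h, and the titles were used. Chromatin bound by the proteins was recovered on anti-HA beads for ChIP-seq, which gave 1 ChIP library and 1 input library for each protein and time point, 8 libraries in all. A condition was thus measured once, the spread between repeat experiments is unknown, and no test was made. RNA was not analysed here, so neither the level of any of these genes nor the monocytic markers of the cells could be checked, and a peak says nothing of whether a gene was active.

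Chemokines are small secreted proteins that steer the movement of leukocytes along gradients, and their receptors are G protein-coupled proteins of the cell surface. Interleukins are secreted signals between blood cells. Most of their receptors pass the signal to JAK kinases and STAT factors, while those of the interleukin-1 and interleukin-18 family work through MYD88 and IRAK kinases, and those of the interleukin-17 family have their own adaptor. Monocytes and macrophages are major sources of inflammatory chemokines such as CXCL8, CCL3 and CCL4, and carry receptors such as CCR1, CCR2 and the interleukin-6 receptor. Many chemokine genes stand side by side in clusters that arose by gene duplication.

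The deposited lists held 70833 peaks for AML1-ETO at 12 h, 105769 for AML1-ETO at 48 h, 28325 for ETO2-GLIS2 at 12 h and 30096 for ETO2-GLIS2 at 48 h, and the read numbers behind them were not used here. How deeply a library was sequenced and how well the precipitation worked also set the length of a list, and these cannot be told apart from wider binding. Each peak was therefore placed by its rank within its own list, ordered by the −log10 q of the peak caller and written as a percent of the list, so that a rank near 0% is among the strongest peaks and a rank near 100% among the weakest. A gene had a promoter peak if the summit of a peak lay within 1 kb of one of its annotated start sites, and where several did, the best ranked is described. The wider window was the gene and 20 kb on either side. Intervals on shares are exact 95% Clopper-Pearson intervals, which cover counting error only, and genes that share a cluster are not independent.

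The DNA under several promoter summits is printed here because it shows what the proteins sat on at the genes that carry the results. Coordinates are hg19 and the plus strand is shown. The windows were 200 bp centred on the summit at 48 h, and where an annotated UTR lay in a window only the longest stretch outside it is printed. IL6R is the exception: only the 30 bases around its Runt match, which lie in a UTR, are shown. Capitals mark matches to the motifs searched, which were Runt (TGTGGT or TGCGGT), GLIS (TGGGGGG), ETS (CCGGAAGT or GAGGAAGT), AP-1 (TGACTCA or TGAGTCA), C/EBP (TTGCNNAA), E-box (CAGCTG) and NF-kB, each on both strands. A match describes the letters and not the presence of a factor. CXCL2 and IL23A were the 2 ligands with the best mean rank over the 4 lists, IL6R the receptor with the best mean rank, and IL1RAP the gene with the best rank at 48 h among those with promoter peaks of AML1-ETO alone. CCL3 and CCL22, also bound by AML1-ETO alone at the promoter, were added after their values had been seen.
CXCL2, AML1-ETO summit, chr4:74964988-74965187: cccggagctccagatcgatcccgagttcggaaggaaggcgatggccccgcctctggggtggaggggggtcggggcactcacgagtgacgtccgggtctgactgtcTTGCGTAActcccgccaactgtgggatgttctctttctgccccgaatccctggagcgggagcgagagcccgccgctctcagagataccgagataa
CXCL2, ETO2-GLIS2 summit, chr4:74964707-74964837: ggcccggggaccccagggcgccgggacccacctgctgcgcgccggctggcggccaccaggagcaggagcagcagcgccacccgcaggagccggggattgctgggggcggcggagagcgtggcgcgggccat
IL23A, AML1-ETO summit, chr12:56727528-56727645: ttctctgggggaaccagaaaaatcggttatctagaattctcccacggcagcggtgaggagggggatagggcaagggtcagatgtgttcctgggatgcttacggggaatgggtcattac
IL23A, ETO2-GLIS2 summit, chr12:56727838-56727995: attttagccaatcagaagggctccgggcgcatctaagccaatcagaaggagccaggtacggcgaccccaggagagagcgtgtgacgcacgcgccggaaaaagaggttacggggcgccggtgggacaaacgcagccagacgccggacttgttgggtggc
IL6R, 30 bases around the Runt match, chr1:154377762-154377791: ccggctttcgtaACCGCAccctgggacggc
IL1RAP, AML1-ETO summit, chr3:190231615-190231814: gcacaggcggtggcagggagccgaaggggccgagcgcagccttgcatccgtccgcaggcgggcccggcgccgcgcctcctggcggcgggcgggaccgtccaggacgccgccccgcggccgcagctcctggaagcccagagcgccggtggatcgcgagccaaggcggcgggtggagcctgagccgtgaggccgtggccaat
CCL3, AML1-ETO summit, chr17:34417490-34417678: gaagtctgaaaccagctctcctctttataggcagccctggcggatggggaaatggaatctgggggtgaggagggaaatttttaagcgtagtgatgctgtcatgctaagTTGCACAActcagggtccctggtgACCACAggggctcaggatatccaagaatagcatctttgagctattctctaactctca
CCL22, AML1-ETO summit, chr16:57391690-57391889: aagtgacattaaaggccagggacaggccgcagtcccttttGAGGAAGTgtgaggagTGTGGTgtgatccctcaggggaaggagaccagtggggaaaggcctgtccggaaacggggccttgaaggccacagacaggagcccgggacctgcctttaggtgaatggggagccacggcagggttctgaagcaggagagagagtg

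The 2 printed CXCL2 windows do not overlap. The AML1-ETO window lay outside annotated transcripts on the upstream side and held a C/EBP match, whereas the ETO2-GLIS2 stretch covered 100 bp of coding sequence and 31 bp of intron of CXCL2 and held no match. At IL23A the AML1-ETO stretch lay in an intron of the neighbouring gene PAN2 and the ETO2-GLIS2 stretch outside annotated transcripts, and neither held a match. At IL6R the summits of the proteins were 4 bp apart and both windows held the same Runt match, in the transcribed leader of the gene. The CCL3 stretch held a Runt and a C/EBP match, and the CCL22 window a Runt and an ETS match. The IL1RAP window held none of the motifs searched.

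The share of chemokine and interleukin genes with a promoter peak lay below that of all protein-coding genes in every list. For AML1-ETO, 51 of 136 members had one at 12 h (37.5%, interval 29.4 to 46.2%) against 55.5% of all genes, and 57 at 48 h (41.9%, 33.5 to 50.7%) against 61.1%. For ETO2-GLIS2, 26 members had one at 12 h (19.1%, 12.9 to 26.7%) against 44.1%, and 27 at 48 h (19.9%, 13.5 to 27.6%) against 47.1%. In all 4 lists the upper end of the interval lay below the share of all genes. In the wider window AML1-ETO reached 103 members at 12 h (75.7% against 79.5%) and 109 at 48 h (80.1% against 81.9%), shares near those of all genes. ETO2-GLIS2 reached 78 at 12 h (57.4% against 68.3%) and 61 at 48 h (44.9% against 67.9%).

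Receptor genes had a higher share than ligand genes in all 4 lists. At 48 h AML1-ETO had a promoter peak at 28 of 47 receptors (59.6%, 44.3 to 73.6%) and at 26 of 83 ligands (31.3%, 21.6 to 42.4%), and at 12 h at 25 receptors (53.2%) and 24 ligands (28.9%). ETO2-GLIS2 had one at 16 receptors at both times (34.0%, 20.9 to 49.3%), against 8 ligands at 12 h (9.64%, 4.25 to 18.1%) and 9 at 48 h (10.8%, 5.08 to 19.6%). The receptors' share with an AML1-ETO peak in the deposited lists was thus close to the 55.5% and 61.1% of all genes, whereas the ligands' share was below in all 4 lists. In the wider window AML1-ETO at 48 h reached 46 of 47 receptors, all 32 interleukin receptors among them, and 58 of 83 ligands. Receptor genes were longer, with a median length of 33877 bp against 6697 bp for ligands, so their windows covered more DNA. Receptor genes also mostly had more annotated starts, and so more DNA within 1 kb of a start. IL17RC had 24 and IL4R 17, against 3 at CCL3 and 1 at CCL22, though the ligand IL32 had 26. The parts of gene length and of the number of starts in these counts were not tested. With every list reduced to its 28325 strongest peaks, the AML1-ETO counts at 48 h became 18 receptors (38.3%) and 17 ligands (20.5%), and 37 members in all (27.2%), against 49.8% of all genes, so the receptors too were then below all genes.

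Within the ligands, few chemokines had ETO2-GLIS2 within 1 kb of a start. Of 43 chemokine ligands, AML1-ETO had a promoter peak at 14 at 12 h (32.6%) and 16 at 48 h (37.2%, 23.0 to 53.3%), and ETO2-GLIS2 at 1 and 2 (2.33% and 4.65%, the latter with an interval of 0.568 to 15.8%). The AML1-ETO counts include CCL3L1, CCL3L3, CCL4L1 and CCL4L2, near-identical copies of CCL3 and CCL4. Of 40 interleukins, AML1-ETO had a promoter peak at 10 at either time (25%), and ETO2-GLIS2 at 7 (17.5%, 7.34 to 32.8%). In the wider window ETO2-GLIS2 reached 24 chemokine ligands at 12 h (55.8%) and 13 at 48 h (30.2%), beside 16 and 14 interleukins (40% and 35%). Chemokine receptors followed the same order, with AML1-ETO at 7 and 9 of 15 (46.7% and 60%) and ETO2-GLIS2 at 2 at either time (13.3%, 1.66 to 40.5%). Interleukin receptors had the highest ETO2-GLIS2 share of the 4 families, 14 of 32 at either time (43.8%, 26.4 to 62.3%), which is near the 44.1% and 47.1% of all genes, beside 18 and 19 with AML1-ETO (56.3% and 59.4%).

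**Figure D1:**
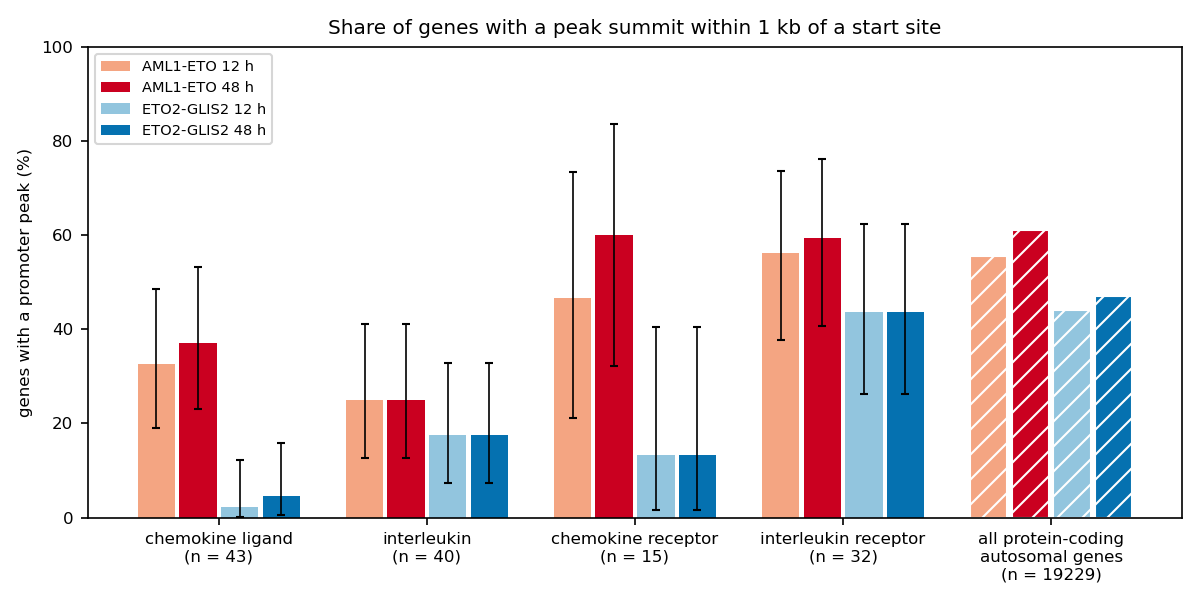
Share of genes with a peak summit within 1 kb of a start site, in percent, for each family and for all protein-coding autosomal genes, with 1 bar per peak list and exact 95% intervals (counting error only) on the families. The ETO2-GLIS2 bars of chemokine ligands stand at 2.33% and 4.65%, and those of interleukin receptors at 43.8%.

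Gene by gene, 19 members had a promoter peak in all 4 lists (14.0%, against 37.1% of all genes), and 12 of them were receptors. Another 21 had one in both AML1-ETO lists and in neither ETO2-GLIS2 list (15.4%, against 7.21% of all genes), and these were 14 ligands, 11 of them chemokines, with 7 receptors. The chemokines include CCL3L1, CCL3L3, CCL4L1 and CCL4L2, near-identical copies of CCL3 and CCL4 that should not be read as separate sites. The members without a promoter peak in any list numbered 74 (54.4%, against 35.3%), 53 of them ligands. Only IL18, which encodes an interferon-inducing member of the interleukin-1 family, had a promoter peak of ETO2-GLIS2 and none of AML1-ETO, and it was in the 12 h list alone, at a rank of 72.5%. At 48 h, 25 members had a promoter peak of both proteins, which is 43.9% of the 57 with AML1-ETO and 92.6% of the 27 with ETO2-GLIS2, where all genes gave 73.9% and 95.9%. Between 12 and 48 h, 47 members kept their AML1-ETO promoter peak, which is 92.2% of those at 12 h and 82.5% of those at 48 h (95.6% and 86.9% of all genes), and 21 kept that of ETO2-GLIS2, 80.8% and 77.8% (90.4% and 84.6%). All 16 receptors with ETO2-GLIS2 at 48 h also had AML1-ETO, and 7 of the 9 ligands did, the others being IL19 and IL32. At both this rests on the place of the summit. With any overlap of the peak counted, all 27 members with ETO2-GLIS2 at 48 h had AML1-ETO too. The best ETO2-GLIS2 summit at IL19 lay closer to a start of IL10.

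**Figure D2:**
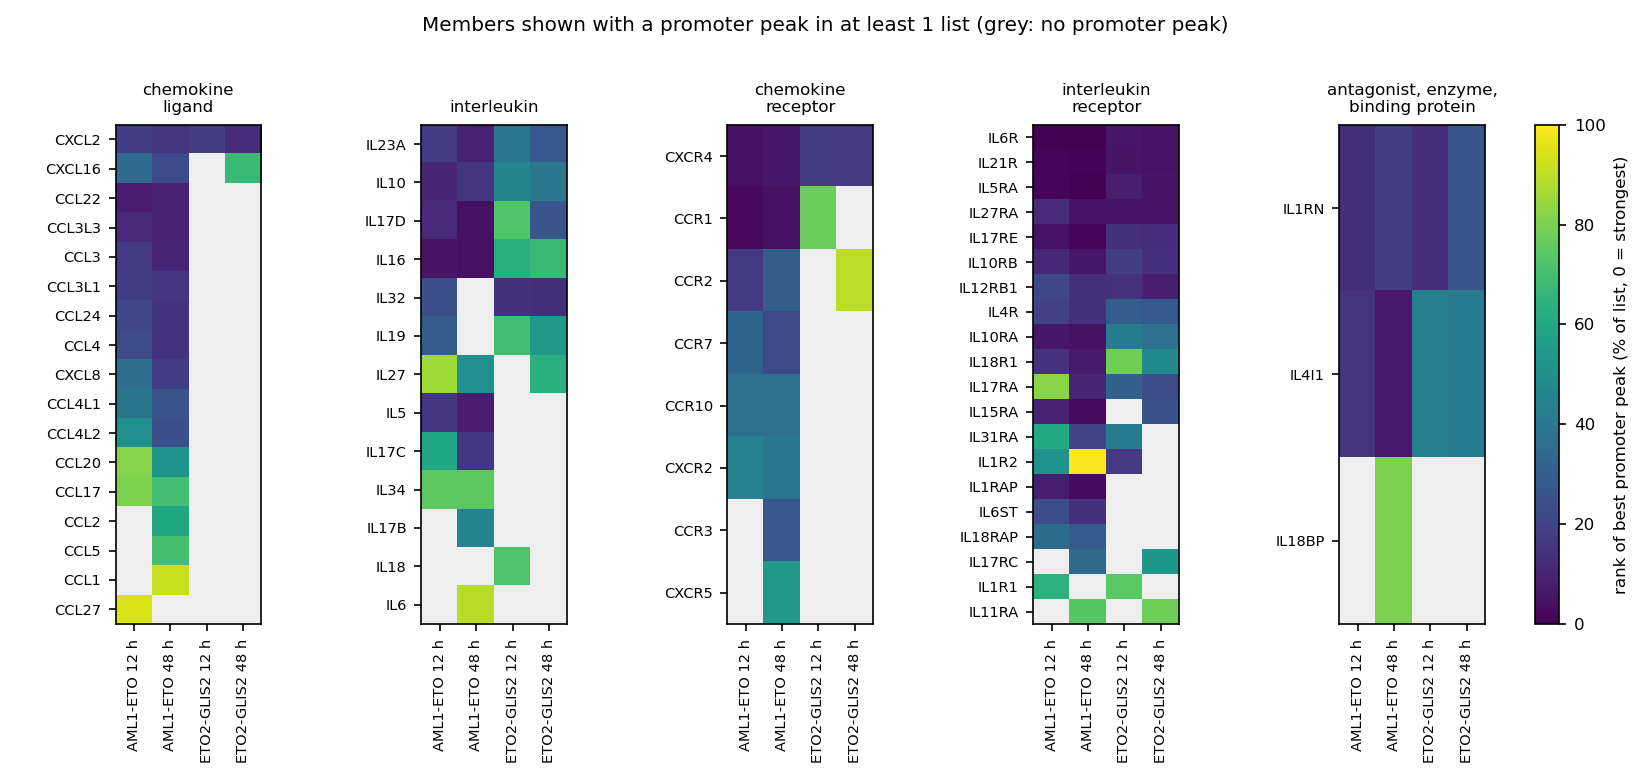
Rank of the best promoter peak, in percent of its list (0 is the strongest), for members with a promoter peak in at least 1 list (1 such member is not shown), by family and list, with grey cells where there was none. Chemokine ligands are mostly grey in the ETO2-GLIS2 columns, and IL6R, IL21R and IL5RA are dark in all 4.

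The interleukin receptors held the strongest sites of the whole set. IL6R (chr1:154377669-154441926, plus strand) encodes the chain that binds interleukin-6. Its promoter peak was number 44 of the AML1-ETO list at 12 h (rank 0.0621%) and number 75 at 48 h (0.0709%), with fold enrichments of 96.0 and 81.3. In the ETO2-GLIS2 lists it was number 1768 (6.24%) and 1463 (4.86%), with fold enrichments of 22.7 and 31.2. The peak spanned 7793 bp and 14679 bp for AML1-ETO at 12 and 48 h, and that of ETO2-GLIS2 5184 and 3193 bp. IL6R and its flanks held 34 and 41 AML1-ETO peaks and 14 and 19 ETO2-GLIS2 peaks at 12 and 48 h, and the best ranked of those away from the promoter had its summit 1831 bp upstream of the nearest start in all 4 lists. This site ranked at 0.308% and 0.0463% for AML1-ETO and at 2.75% and 1.56% for ETO2-GLIS2, which is better than the promoter peak in all lists but AML1-ETO at 12 h.

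IL21R, the receptor of the lymphocyte cytokine interleukin-21, ranked at 1.87% and 0.901% for AML1-ETO at 12 and 48 h, with widths of 2971 and 6385 bp. For ETO2-GLIS2 it ranked at 5.25% and 4.81%, with widths of 805 and 1463 bp. IL5RA, the specific chain of the interleukin-5 receptor of eosinophils, ranked at 1.37% and 0.355% for AML1-ETO and at 8.26% and 5.36% for ETO2-GLIS2. In 3 of the 4 lists the summit near IL5RA lay closer to the start of TRNT1, a tRNA-processing gene that starts beside it. The peak can therefore not be assigned to IL5RA alone. When only summits nearest to a start of the gene itself were counted, IL5RA had no AML1-ETO promoter peak at 48 h. IL27RA, a receptor chain for interleukin-27, ranked at 11.8% and 4.72% for AML1-ETO, and at 4.96% and 4.77% for ETO2-GLIS2. An equal percent is not an equal place in 2 lists. At 48 h the median promoter peak of all genes ranked at 10.0% for AML1-ETO and 28.0% for ETO2-GLIS2. IL6R, IL21R, IL5RA and IL27RA all had a promoter peak at a rank under 10% in both 48 h lists.

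The receptors IL17RE, IL10RB and IL12RB1 also had a promoter peak in all 4 lists. IL17RE, the receptor for interleukin-17C, ranked at 4.93% and 1.38% for AML1-ETO and at 13.5% and 12.7% for ETO2-GLIS2. IL10RB, a chain shared by receptors for interleukin-10, interleukin-22 and type III interferons, ranked at 11.5% and 5.95% for AML1-ETO and at 18.2% and 13.4% for ETO2-GLIS2. IL12RB1, shared by the receptors for interleukin-12 and interleukin-23, ranked better for ETO2-GLIS2 (14.4% and 8.34%) than for AML1-ETO (21.2% and 13.7%). In 3 lists its best summit lay 986 to 1000 bp from an IL12RB1 start and closer to a start of the neighbouring gene MAST3. IL10RA, the ligand-binding chain for interleukin-10, ranked at 6.07% and 4.50% for AML1-ETO but only at 42.5% and 37.6% for ETO2-GLIS2.

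Receptor chains of the interleukin-1 and interleukin-6 families also lay among those bound by AML1-ETO alone at the promoter. IL1RAP, the accessory chain that the interleukin-1 receptor needs for signalling, ranked at 8.17% and 3.15% with widths of 997 and 2591 bp, and the summit was 125 bp upstream of the start at both times. ETO2-GLIS2 had no promoter peak there, and in the wider window 1 peak at 12 h, at a rank of 92.7%, and 0 at 48 h. IL6ST (gp130), the signalling chain shared by the receptors of the interleukin-6 family, ranked at 23.6% and 13.7% for AML1-ETO and had no ETO2-GLIS2 peak in its window at either time. The partner chain IL6R was thus among the strongest members for both proteins, while IL6ST had AML1-ETO peaks only. IL1R2, the decoy receptor for interleukin-1, stood at ranks of 51.3% and 98.8% for AML1-ETO and 16.7% for ETO2-GLIS2 at 12 h, with no ETO2-GLIS2 promoter peak at 48 h. Its AML1-ETO peaks in the gene, about 10 kb downstream of the start (10389 and 10349 bp), were far stronger, at ranks of 2.38% and 2.98%.

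**Figure D3:**
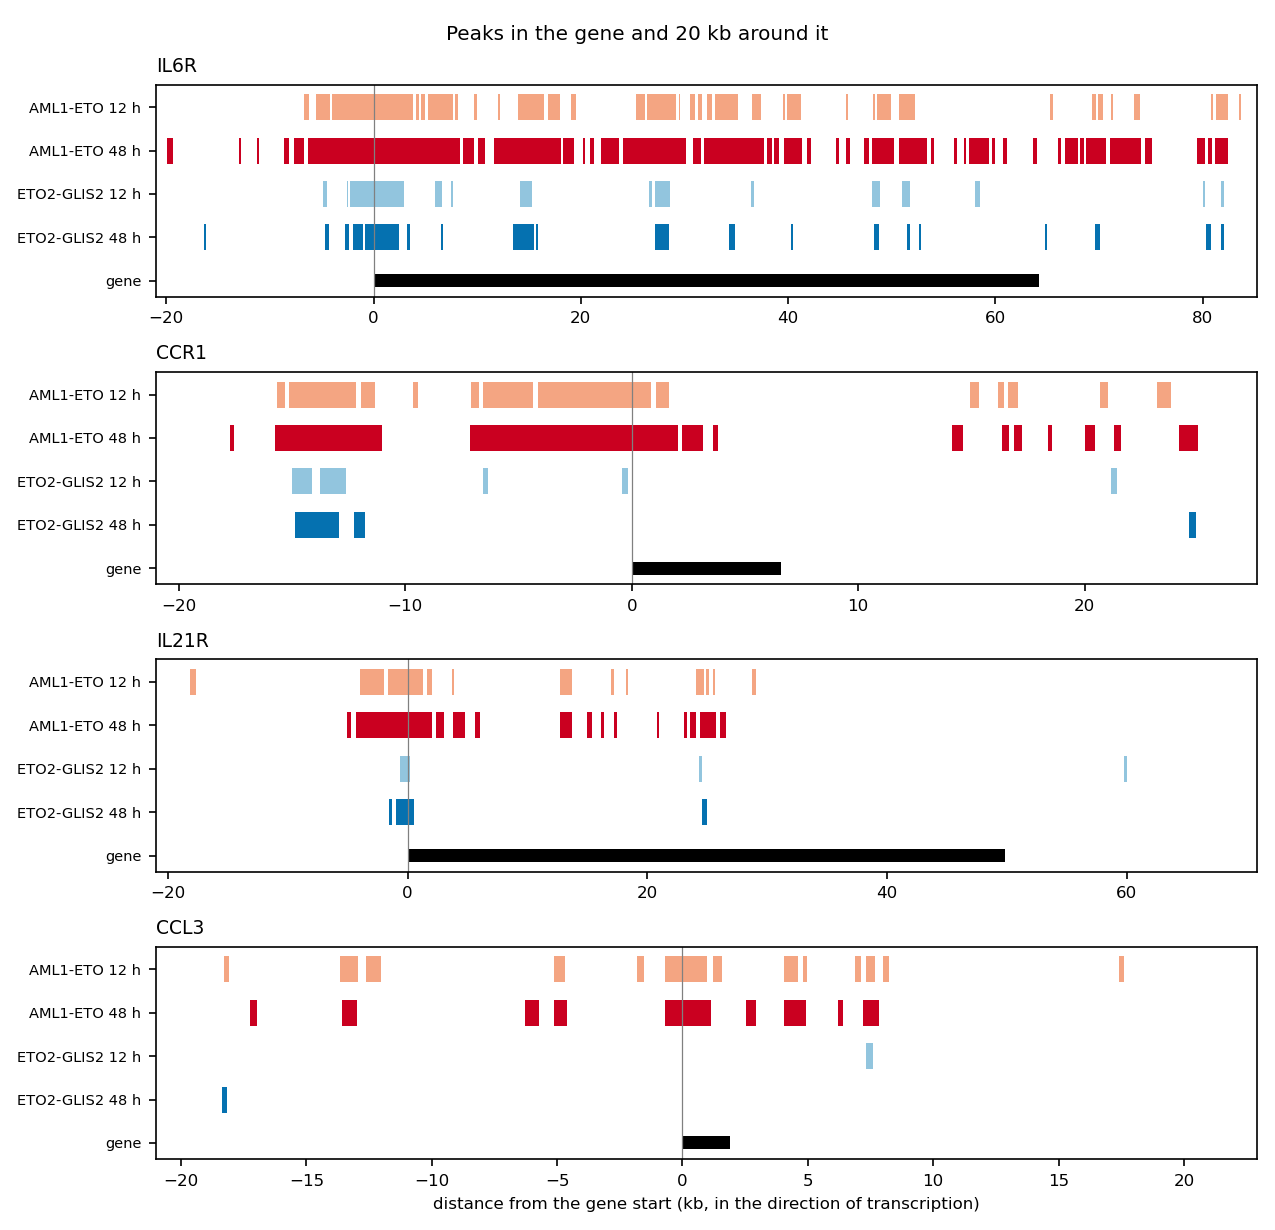
Peaks of the 4 lists in IL6R, CCR1, IL21R and CCL3 with 20 kb on either side, drawn to scale as distance from the gene start in kb in the direction of transcription, with the gene as a black bar. IL6R carries 34 and 41 AML1-ETO peaks against 14 and 19 of ETO2-GLIS2, and no ETO2-GLIS2 peak lies at the CCL3 start.

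Among chemokine receptors, CXCR4 and CCR1 stood out for AML1-ETO. CXCR4, the receptor for CXCL12 that holds blood progenitors in the marrow, had a promoter peak in all 4 lists, at ranks of 4.46% and 6.15% for AML1-ETO, and of 17.1% and 16.5% for ETO2-GLIS2. The AML1-ETO peak was 4184 and 5036 bp wide and that of ETO2-GLIS2 1560 and 443 bp. CCR1, a receptor for CCL3 and CCL5 on monocytes, ranked at 2.71% and 4.65% for AML1-ETO with widths of 4999 and 9168 bp. For ETO2-GLIS2 its promoter peak at 12 h was 274 bp wide at a rank of 77.4%, and there was none at 48 h. The ETO2-GLIS2 signal at CCR1 lay instead 13.2 kb upstream (13178 and 13186 bp), at ranks of 12.8% and 9.04%, where AML1-ETO also had a peak at both times (13164 and 13476 bp upstream, 5.68% and 6.84%). CCR2, the receptor for CCL2 on classical monocytes, ranked at 17.2% and 29.3% for AML1-ETO, had no ETO2-GLIS2 promoter peak at 12 h and 1 of 238 bp at 48 h, at a rank of 90.1%. CCR7, CCR10 and CXCR2 had promoter peaks of AML1-ETO alone, at ranks between 21.9% (CCR7 at 48 h) and 44.4% (CXCR2 at 12 h). CCR3 and CXCR5 had one in the AML1-ETO list at 48 h only.

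Several inflammatory chemokines were sites of AML1-ETO and not of ETO2-GLIS2 at the promoter. CCL3, also known as MIP-1α, ranked at 16.8% and 10.3% for AML1-ETO with widths of 1670 and 1852 bp. Its neighbour CCL4 (MIP-1β) ranked at 23.3% and 14.8% with widths of 714 and 598 bp. CXCL8, the neutrophil attractant interleukin-8, ranked at 35.8% and 18.7% with widths of 259 and 660 bp, and the summit was 66 bp downstream of the start at both times. CCL22, a ligand of CCR4, ranked at 7.90% and 10.1% with the summit 949 and 905 bp upstream, close to the 1 kb limit of the promoter. CCL24, a ligand of CCR3 on eosinophils, ranked at 21.4% and 14.5%. None of these 5 genes had an ETO2-GLIS2 promoter peak, but ETO2-GLIS2 was not absent from their surroundings, since a peak 9390 bp upstream of CCL22 ranked at 8.51% at 12 h and one 9375 bp upstream at 10.9% at 48 h, and CCL24 had 3 ETO2-GLIS2 peaks in its window at either time.

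CCL3L1, CCL3L3, CCL4L1 and CCL4L2 are near-identical copies of CCL3 and CCL4, and how the authors' alignment placed reads among them is uncertain. They had promoter peaks in both AML1-ETO lists too, the best at CCL3L3 (11.8% and 9.91%), and should not be read as separate sites. CCL17 and CCL20 were weaker AML1-ETO sites, at ranks of 80.2% and 70.0% for CCL17 and 81.8% and 51.6% for CCL20. CCL1, CCL2 and CCL5 had a promoter peak in the AML1-ETO list at 48 h only, all in the weaker part of the list (91.7%, 59.7% and 70.3%). CCL2, the main attractant of monocytes, had far better ranked AML1-ETO peaks about 12 kb upstream (12303 bp at 12 h and 12342 bp at 48 h), at ranks of 6.47% and 6.88% and with widths of 4047 and 11484 bp. ETO2-GLIS2 had a peak 13986 and 13989 bp upstream of CCL2, at ranks of 9.73% and 10.4%.

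CXCL2, a neutrophil attractant, was the one chemokine ligand with a promoter peak in all 4 lists. It ranked at 18.7% and 15.5% for AML1-ETO and at 18.2% and 12.7% for ETO2-GLIS2, with widths of 883, 1625, 714 and 853 bp in the same order. The AML1-ETO summits lay 128 and 175 bp upstream of the start and the ETO2-GLIS2 summits 106 and 105 bp downstream, so that the summits of the proteins were 235 and 281 bp apart although the peaks overlapped. The other chemokine ligand with any ETO2-GLIS2 promoter peak was CXCL16, at 48 h only, at a rank of 67.9%. CXCL12, the ligand of CXCR4, had no peak of either protein in the gene or its 20 kb flanks.

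The interleukins with a promoter peak were few and mixed. IL10, the anti-inflammatory interleukin, had one in all 4 lists, at ranks of 10.8% and 15.1% for AML1-ETO (2476 and 5525 bp wide) and 45.3% and 39.8% for ETO2-GLIS2 (333 and 255 bp). All its summits lay between 18 and 33 bp downstream of the start. IL16, a ligand of CD4, ranked at 5.46% and 4.44% for AML1-ETO and at 62.8% and 67.7% for ETO2-GLIS2. IL17D, a member of the interleukin-17 family, ranked at 11.8% and 4.68% for AML1-ETO and at 72.9% and 26.4% for ETO2-GLIS2. IL32, an inflammatory cytokine of lymphocytes and monocytes, ranked at 13.9% and 13.1% for ETO2-GLIS2 (1702 and 2334 bp wide) and at 24.6% for AML1-ETO at 12 h, and at 48 h no AML1-ETO summit lay within 1 kb of a start. At 48 h an AML1-ETO peak of 18414 bp in the upstream flank of IL32, at a rank of 2.16%, had its summit 1569 bp from the start of MMP25, a membrane-bound metalloprotease. With any overlap of the peak counted, or with a promoter of 3 kb, IL32 had an AML1-ETO promoter peak at 48 h as well.

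IL23A, which encodes the specific subunit of interleukin-23, had promoter peaks in all 4 lists, at ranks of 17.7% and 10.1% for AML1-ETO, and of 40.0% and 27.7% for ETO2-GLIS2, but every summit lay closer to a start of PAN2. IL5, the eosinophil growth factor, had AML1-ETO promoter peaks alone, at 15.9% and 8.10%, with the summit closer to a start of the DNA repair gene RAD50. IL1B and IL6, the classical inflammatory interleukins of monocytes, had weak promoter peaks or none within 1 kb. IL6 had promoter peaks in the AML1-ETO list at 48 h only, the better at a rank of 89.3% and a fold enrichment of 2.78. IL1B had no promoter peak in any list, and its best AML1-ETO peak lay 11640 and 11642 bp downstream of the start, at ranks of 16.4% and 5.76%. With a promoter of 3 kb, IL1B had a peak in 3 lists, all but ETO2-GLIS2 at 48 h. IL3, a growth factor for blood progenitors, had AML1-ETO peaks about 10 kb upstream (10334 and 10340 bp, ranks 15.3% and 22.2%) and no ETO2-GLIS2 peak.

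Of the 6 members that are neither ligand nor receptor, IL1RN and IL4I1 had a promoter peak in all 4 lists. IL1RN, the natural antagonist of interleukin-1, ranked at 13.1% and 18.6% for AML1-ETO and at 13.0% and 26.7% for ETO2-GLIS2, and its summits lay between 46 bp upstream and 78 bp downstream of the nearest start. IL4I1, an amino acid oxidase secreted by macrophages, ranked at 15.3% and 6.64% for AML1-ETO and at 43.1% and 41.4% for ETO2-GLIS2, but the summits were nearer to starts of ATF5 or NUP62. IL18BP, the binding protein that neutralises interleukin-18, had 1 weak AML1-ETO promoter peak at 48 h (80.1%). IL22RA2, a soluble decoy for interleukin-22, had no promoter peak, but its AML1-ETO peaks in the gene, 17681 and 17503 bp downstream of the start, ranked at 1.18% and 3.74%.

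Some members had strong peaks in the gene or its flanks without one at the promoter, and part of these sat at the start of another gene. IL2RA, the high-affinity chain for interleukin-2, had a peak about 11 kb inside the gene in all 4 lists (11049 to 11076 bp from the start), at ranks of 6.99% and 6.46% for AML1-ETO, and of 6.12% and 13.4% for ETO2-GLIS2. For IL17RB the best peak at 48 h lay 35 bp from the start of ACTR8 in both lists (5.57% and 8.42%). For IL22RA1 the best AML1-ETO peak at 48 h was 557 bp from the start of MYOM3 (5.40%), and for IL1A the best ETO2-GLIS2 peak at 48 h was 243 bp from the start of CKAP2L (5.24%). Over all members, 73 of the 690 AML1-ETO peaks away from member starts at 48 h, and 35 of the 153 of ETO2-GLIS2, were within 1 kb of the start of another protein-coding gene. The members' windows held 10.1 AML1-ETO peaks per 100 kb at 48 h, against 5.57 in the windows of all genes, and 2.48 of ETO2-GLIS2 against 1.68. At 12 h the densities were 7.24 against 3.69 and 2.55 against 1.54. Members were shorter, with a median length of 10764 bp against 27568 bp for all genes. Gene bodies and flanks thus made up different parts of the 2 sets of windows. The part of gene length in the densities was not tested.

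There were 19 members without a peak of either protein in the gene or 20 kb around it in any list. These were the chemokine ligands CCL15, CXCL3, CXCL5, CXCL12 and CXCL13, the receptor CCR8, the antagonist IL36RN, and the interleukins IL1F10, IL2, IL4, IL7, IL15, IL17A, IL22, IL26, IL31, IL33, IL36A and IL36B. In contrast, 55 members had a peak in this window in all 4 lists. Neither count was made over all genes, so neither is called particular to the members. Of 136 members, 69 stood in 25 clusters in which the windows of neighbours touched, and these differed widely. The cluster of CXCL5 and CXCL3 and that of IL26 and IL22 had no peak in any list. The cluster of CCR3 and CCR1 had 24 and 35 AML1-ETO peaks and 8 and 5 of ETO2-GLIS2, and that of IL4R and IL21R 22 and 28 against 9 and 10. In clusters and outside them the share with a promoter peak was alike for AML1-ETO at 48 h (42.0% of 69 and 41.8% of 67), and it was 15.9% and 23.9% for ETO2-GLIS2. By role, AML1-ETO at 48 h had a promoter peak at 16 of 23 receptors in clusters (69.6%) and 12 of 24 alone (50%). For ligands these were 12 of 44 (27.3%) and 14 of 39 (35.9%). At 12 h the shares were 60.9% and 45.8% of receptors, and 27.3% and 30.8% of ligands. These groups are small, no interval was computed for them, and the clustered ligands include the near-identical copies of CCL3 and CCL4.

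Where both proteins had a promoter peak, the AML1-ETO peak was mostly the wider. At 48 h it was wider at 22 of 25 members, by a median ratio of 4.36 (range 0.896 to 21.7), and the peaks overlapped at 22. Peak width can also depend on sequencing depth, whose part in these ratios was not tested. Over all 8682 genes with a promoter peak of both at 48 h the median ratio was 2.68 and the AML1-ETO peak was the wider at 92.3%. At 12 h it was wider at 22 of 25 members, with a median ratio of 2.1. Over 7925 genes it was wider at 76.6%, with a median ratio of 1.66. The members' peaks overlapped at 20 of 25 at 12 h. Where they did not overlap, at either time, the ratio compares separate sites. The largest ratio at 48 h was that of IL10, and the exceptions were IL12RB1, IL17RC and IL11RA. The summits of the proteins were a median 218 bp apart at 48 h, against 200 bp over all genes, and 11 of 25 pairs lay within 200 bp. The median width of an AML1-ETO promoter peak at 48 h was 1167 bp for members against 1813 bp for all genes, and its median rank 15.7% against 10.0%. For receptors these were 1479 bp and 13.7% and for ligands 828 bp and 17.4%. For ETO2-GLIS2 at 48 h the median width was 444 bp for members and 765 bp for all genes, and the median rank 26.7% and 28.0%.

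**Figure D4:**
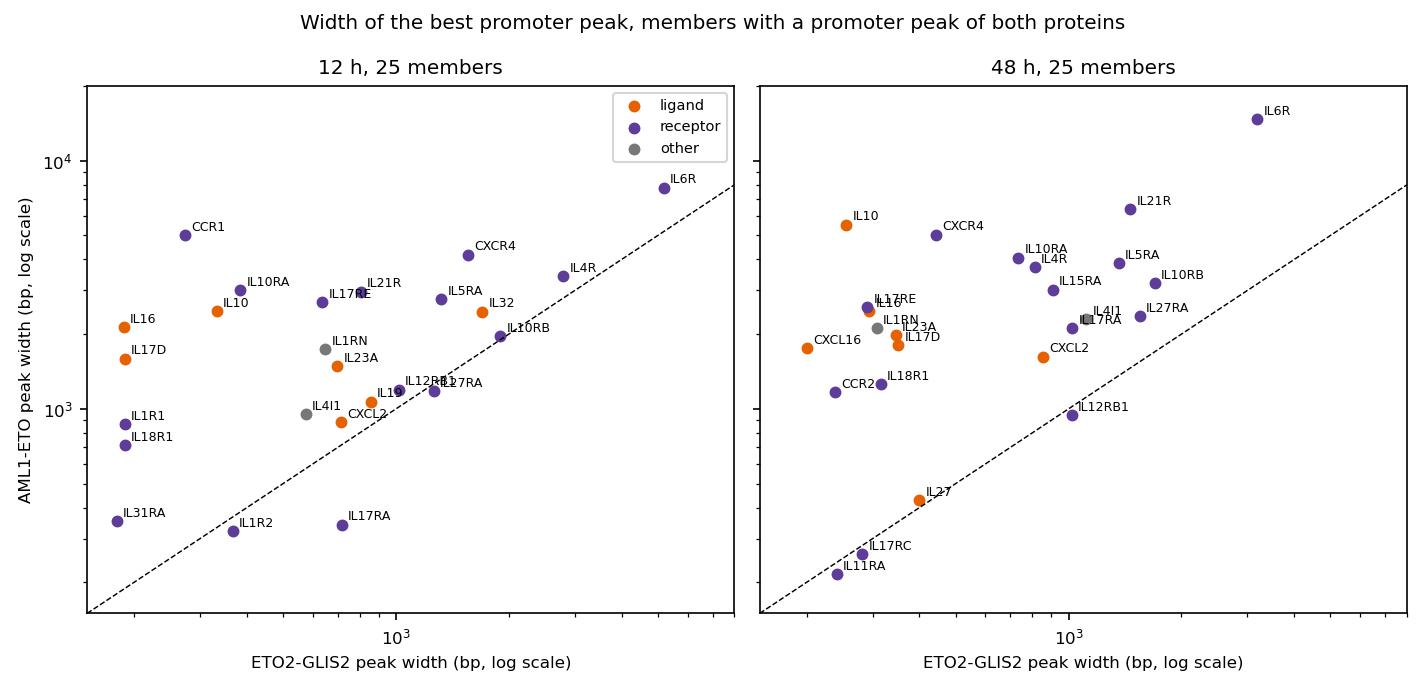
Width of the best promoter peak for the members with one of both proteins, ETO2-GLIS2 on the x axis and AML1-ETO on the y axis, in bp on log scales, with equal widths on the dashed line, at 12 h (left) and 48 h (right). At both times 22 of 25 points lie above the line, and IL6R has the widest peak of either protein.

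Base composition moved with part of these results. In the kilobase around the start, members had a median GC content of 50.4%, against 59.2% for all genes. It was 49.1% for ligands, 56.4% for interleukin receptors and 46.6% for chemokine receptors. Chemokine ligands stood at 50.3%. At 48 h their AML1-ETO share was 37.2% (23.0 to 53.3%), against 60% (32.3 to 83.7%) for chemokine receptors. Their ETO2-GLIS2 share at 48 h was 4.65% (0.568 to 15.8%), against 13.3% (1.66 to 40.5%). The intervals of ligands and receptors overlapped for both proteins. The members with a promoter peak in all 4 lists had a median of 59.9%, and those with AML1-ETO alone in both lists 50.7%. Among the 43 members with at least 55% GC, 25 had an AML1-ETO promoter peak at 48 h (58.1%, against 71.3% of all genes in that range) and 18 an ETO2-GLIS2 peak (41.9% against 58.1%). Among the 58 between 45% and 55%, the counts were 24 (41.4% against 51.4%) and 6 (10.3% against 32.5%). Among the 35 below 45% they were 8 (22.9% against 25.4%) and 3 (8.57% against 15.4%). Below 45% GC the members' AML1-ETO share was near that of all genes at 48 h, and at 12 h as well (22.9% and 22.5%). These ranges were chosen after the data had been seen, and the part of GC content in the difference between receptors and ligands was not tested. The ranges were not matched for CpG content. Members with an AML1-ETO promoter peak at 48 h had a median ratio of observed to expected CpG of 0.268, against 0.753 for all such genes. Without a peak the medians were 0.224 and 0.421. The part of CpG content was not tested.

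Runt matches were present at summits of both proteins. In the AML1-ETO windows at 48 h, 17 of 57 members held one (29.8%, 18.4 to 43.4%), against 23.1% of the 10282 promoter windows of all genes. They included CCL3, CCL22, CCR1, IL10, IL16, IL6R and IL6ST. In the ETO2-GLIS2 windows at 48 h, 7 of 27 held one (25.9%, 11.1 to 46.3%), against 15.6%, IL10, IL17D, IL15RA, IL17RE, IL6R and IL1RN among them. The intervals contained the shares of all genes. By role, 11 of 28 receptors and 6 of 26 ligands held a Runt match in the AML1-ETO windows (39.3% and 23.1%), with intervals that overlapped widely (21.5 to 59.4% and 8.97 to 43.6%). It was found at 7 of the 19 members bound in all 4 lists and at 8 of the 21 bound by AML1-ETO alone. The GLIS letters were in none of the 57 AML1-ETO windows (upper bound 6.27%, against 5.02% of all genes) and in 3 of 27 ETO2-GLIS2 windows (11.1%, against 10.0%), those of IL32, IL17RC and IL27RA. E-box letters were in 14 of 57 AML1-ETO windows (24.6% against 15.6%) and 4 of 27 ETO2-GLIS2 windows (14.8% against 14.7%). C/EBP letters were in 6 of 57 (10.5% against 4.79%), at CCL3, CXCL2, CXCR5, IL10, IL6 and IL1R2, and in 1 of 27 (3.70% against 4.07%). Each of these intervals also contained the share of all genes, so none of the shares is called particular to these genes.

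Other genes of the same pathways were taken from a list of 54 chosen by textbook role, which holds further chemokine ligands, chemokine receptors and cytokine receptor chains beside signalling genes. The list had 53 genes on the autosomes, and 36, 38, 31 and 32 of them had a promoter peak in the AML1-ETO lists at 12 and 48 h and the ETO2-GLIS2 lists at 12 and 48 h (67.9%, 71.7%, 58.5% and 60.4%, against 55.5%, 61.1%, 44.1% and 47.1% of all genes). All 4 JAK kinases and all 8 genes of the SOCS family, the feedback inhibitors of cytokine signalling, had one in every list. Over all genes, 37.1% had one in every list. Other groups had fewer. At 48 h AML1-ETO and ETO2-GLIS2 had one at 5 and 4 of 8 interleukin-1 signalling genes, and at 4 and 2 of 7 chemokine receptors. No interval was computed for the list or its groups, so no share is called above that of all genes. CISH, a SOCS family member, had one of the strongest AML1-ETO promoter peaks at 48 h, at a rank of 0.176%, and ranked at 7.46% for ETO2-GLIS2. By the place of the summit, MYD88 and GRK2 had promoter peaks of ETO2-GLIS2 alone, at ranks of 2.93% and 0.698% at 48 h. MYD88 is the adaptor of the interleukin-1 and Toll-like receptors, and GRK2 a kinase that desensitises chemokine receptors. Whether an AML1-ETO peak overlapped their promoters was not checked. Of the 6 other chemokine ligands on the list only CX3CL1 had a promoter peak, of AML1-ETO at 48 h, at a rank of 91.4%.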

How the data were processed

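ChIP-seq was done with anti-HA beads in U937 lines #4 (AML1-ETO) and #14 (ETO2-GLIS2) after 12 or 48 h of doxycycline, with 1 ChIP and 1 input library per condition. Groups came from the sample titles. Per the labels, the authors used Bowtie2 2.2.9 and SAMtools 1.7 with hg19 and called peaks with MACS2 2.1.1.20160309, 1 list per ChIP library and not pooled. The MACS2 settings are not given in the sources used here. The deposited lists give, for each peak, a score, the fold enrichment as a ratio over local background, the −log10 p and −log10 q of the summit, and the distance of the summit from the peak start. The smallest −log10 q was 1.30 to 1.31. A deeper library gives larger −log10 q and fold values, more peaks and wider ones, so strength was compared as ranks within a list, and widths and fold values set side by side across lists carry this limit. The lists hold no read numbers, and the totals that the study gives for its libraries were not used here.

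Gene models came from GENCODE release 44 in its GRCh37 version, and every annotated transcript start of a gene was used. Summits were assigned with Python 3.11.15, numpy 2.4.6 and pandas 2.3.3, intervals came from scipy 1.17.1 and sequences from samtools 1.23.1 and pysam 0.24.0. Peaks were ordered by −log10 q, ties by −log10 p, then fold and then position. A summit counted for each gene with a start within 1 kb. The assignment was checked on simulated peaks. No p-value was computed.

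The members, roles and lists were chosen with earlier results of these data known. Named were the 10 genes with the best mean rank among those with a promoter peak in all 4 lists, the 3 best ranked per role and the 3 widest in each 48 h list, up to 8 genes bound at the promoter by 1 protein alone, the 3 best ranked genes without a promoter peak in each 48 h list, and 17 genes of textbook roles in monocytes. Some values and sequences are not reported here. The other genes named belong to a count or were chosen after their values were seen. The alternatives were thresholds of 5 and 10 on −log10 q, lists of equal length, promoters of 3 kb, flanks of 5 kb, any overlap of the peak in place of its summit, and starts of protein-coding transcripts alone.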

Additional observations from a re-analysis of the deposited data

How the results depend on the processing

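Of 92 counts of members recomputed under another setting, 79 stayed within 1.5 times and 13 moved. With a −log10 q of at least 10, members with a promoter peak numbered 31 and 35 for AML1-ETO at 12 and 48 h (from 51 and 57) and 14 and 16 for ETO2-GLIS2 (from 26 and 27). For AML1-ETO these were 22.8% and 25.7% of members, against 37.5% and 48.1% of all genes. For ETO2-GLIS2 they were 10.3% and 11.8%, against 26.0% and 29.5%. Under the same threshold the members with a peak of both proteins at 48 h were 15, the AML1-ETO 48 h counts were 15 ligands and 18 receptors, ETO2-GLIS2 had 4 ligands at 48 h, and its wider window at 12 h held 41 members. A threshold of 5 gave 17 ligands for AML1-ETO at 48 h. The same number of strongest peaks in every list (28325) gave 37 members, 17 ligands and 18 receptors for AML1-ETO at 48 h. Stricter settings keep fewer peaks by construction. The receptor share was above the ligand share in 32 of 32 recomputed comparisons. Leaving out the near-identical copies and the readthrough gene CCL15-CCL14, and counting only summits nearest to a member among protein-coding genes, were chosen after seeing the data and moved no count by over 1.5 times. For the 39 named genes, the number of lists with a promoter peak was the same in 275 of 311 recomputed values and moved in 36, of which 12 came with the threshold of 10 and 6 with the promoter of 3 kb (IL1A, IL1B, IL17RB, IL18BP, IL22RA2 and IL32). No paired analysis was possible because each condition had 1 library and no result came from a test. A gene without a peak is one where none was detected, which does not show that the protein was absent.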
